A study of Homo sapiens with 60 samples.

Results

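The oxidative phosphorylation genes of both genomes, 112 of the 60675 genes in the deposited table, were followed across every extract and dose. They were the 13 mRNAs of mitochondrial DNA and 99 protein-coding genes of the nucleus, taken by symbol: the NDUFA, NDUFB, NDUFC, NDUFS and NDUFV genes, the UQCR genes, COX4 to COX8, the ATP5 genes, CYC1 and SDHA to SDHD. By role, the nuclear members held 37 genes of complex I, 8 complex I assembly factors that share the NDUFA letters, 4 of complex II, 10 of complex III, 19 of complex IV, 18 of complex V, the inhibitor ATP5IF1 and 2 readthrough genes. The rule uses gene names and no measured value, and it was set with earlier results of these data known.

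HT29, an established human colorectal adenocarcinoma line, was treated for 24 h with water extracts of Sagunja-tang or Samul-tang, which are herbal formulae, or of the single plants Cinnamomi Cortex, Astragali Radix, Cnidii Rhizoma, Rehmanniae Radix Preparata or Paeoniae Radix, each at 20, 100 and 500 µg/mL. The vehicle was dimethyl sulfoxide (DMSO). Each group had 3 libraries, apart from Paeoniae Radix, which had 1 per dose, and the 60 libraries held 20459346 to 36253747 counts. The sample labels give the vehicle as 0.1% DMSO and the design text gives 2%. The labels as read here give no DMSO level for the extract libraries. The design text also has the more toxic extracts start at their 20% inhibitory concentration, so the doses printed here are nominal. The labels do not say whether replicates came from separate cultures. The p-values therefore rest on a spread between libraries that may be technical.

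Oxidative phosphorylation passes electrons from NADH and succinate through complexes I and II to complex III, cytochrome c and complex IV, and complex V uses the resulting proton gradient to make ATP. Mitochondrial DNA encodes core subunits of complexes I, III, IV and V, transcribed as long polycistronic RNAs that are cut apart, while complex II and the remaining subunits are encoded in the nucleus, translated in the cytosol and imported. Colon cancer cells in culture are known to combine this pathway with high glycolysis. In bulk RNA, fewer cells of a kind and less RNA per cell cannot be told apart.

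All titles name the same batch, B, but the libraries fell into sets that follow the sample codes and that no label explains. A first set of 27 libraries held all vehicle, Rehmanniae Radix Preparata and Cnidii Rhizoma libraries with replicate 1 of every Cinnamomi Cortex and Astragali Radix group, and a second set of 30 held the remaining Cinnamomi Cortex and Astragali Radix libraries and every Sagunja-tang and Samul-tang library. The 3 Paeoniae Radix libraries were placed in neither set. The first principal component, with 15.7% of the variance, separated the first and second sets, with replicate 2 of Cinnamomi Cortex 500 as the exception. Both formulae therefore lay in a set with no vehicle library, and the counts of calls with the formulae are given without and with a term for the library set, which is estimated from the 6 groups that lie in both. The 11 colon epithelial markers, among them EPCAM, CDH1 and CDX2, all passed the filter on low counts and summed to 11187 to 14207 CPM (counts scaled to a common library size) over all libraries. Of 7 fibroblast markers 2 passed and the list summed to 1.5 to 2.78 CPM. Of 5 leukocyte markers, PTPRC and CD3E did not pass and CD14, ITGAM and LYZ did. The 5 summed to 1378 to 1613 CPM in formula libraries, against 1457 to 1497 CPM in vehicle libraries, nearly all of it LYZ, at 1246 to 1723 CPM over all libraries.

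Mitochondrial mRNAs took a smaller share of all counts in every formula library than in every vehicle library, while the nuclear members took a slightly larger one in most. The 13 mitochondrial mRNAs made up 6.88 ± 0.457%, 6.82 ± 0.771% and 6.64 ± 0.384% of counts after 20, 100 and 500 µg/mL Sagunja-tang (SD, n = 3 each). After the same doses of Samul-tang they made up 7.06 ± 0.453%, 6.37 ± 0.862% and 6.7 ± 0.771% (SD, n = 3 each). The 3 vehicle libraries had 8.71%, 9.89% and 11.4%. The 18 formula libraries ran between 5.84% and 7.55% with no order by dose, and none reached the lowest vehicle library.

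The nuclear members, summed, took a far smaller share. It was 0.792 ± 0.0496%, 0.858 ± 0.0302% and 0.863 ± 0.00905% after 20, 100 and 500 µg/mL Sagunja-tang and 0.832 ± 0.0092%, 0.826 ± 0.053% and 0.852 ± 0.00128% after Samul-tang, against 0.771 ± 0.0406% with vehicle (SD, n = 3 each). All formula libraries lay above the highest vehicle library, 0.813%, in 4 of the 6 groups, and the groups overlapped with vehicle for Sagunja-tang 20 and Samul-tang 100. The log2 ratio of the mitochondrial to the nuclear sum differed from vehicle by -0.75 to -0.57 in the 6 formula groups. The shares moved with the library set too: the mitochondrial share had a median of 7.0% in the second set and 9.58% in the first. Inside the 6 Cinnamomi Cortex and Astragali Radix groups, 10 of 12 second-set libraries had a lower mitochondrial share than the first-set library of their own group and 11 of 12 had a higher nuclear share. The part of the library set in the formula values was not tested beyond the fits with the set term given below.

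**Figure D1:**
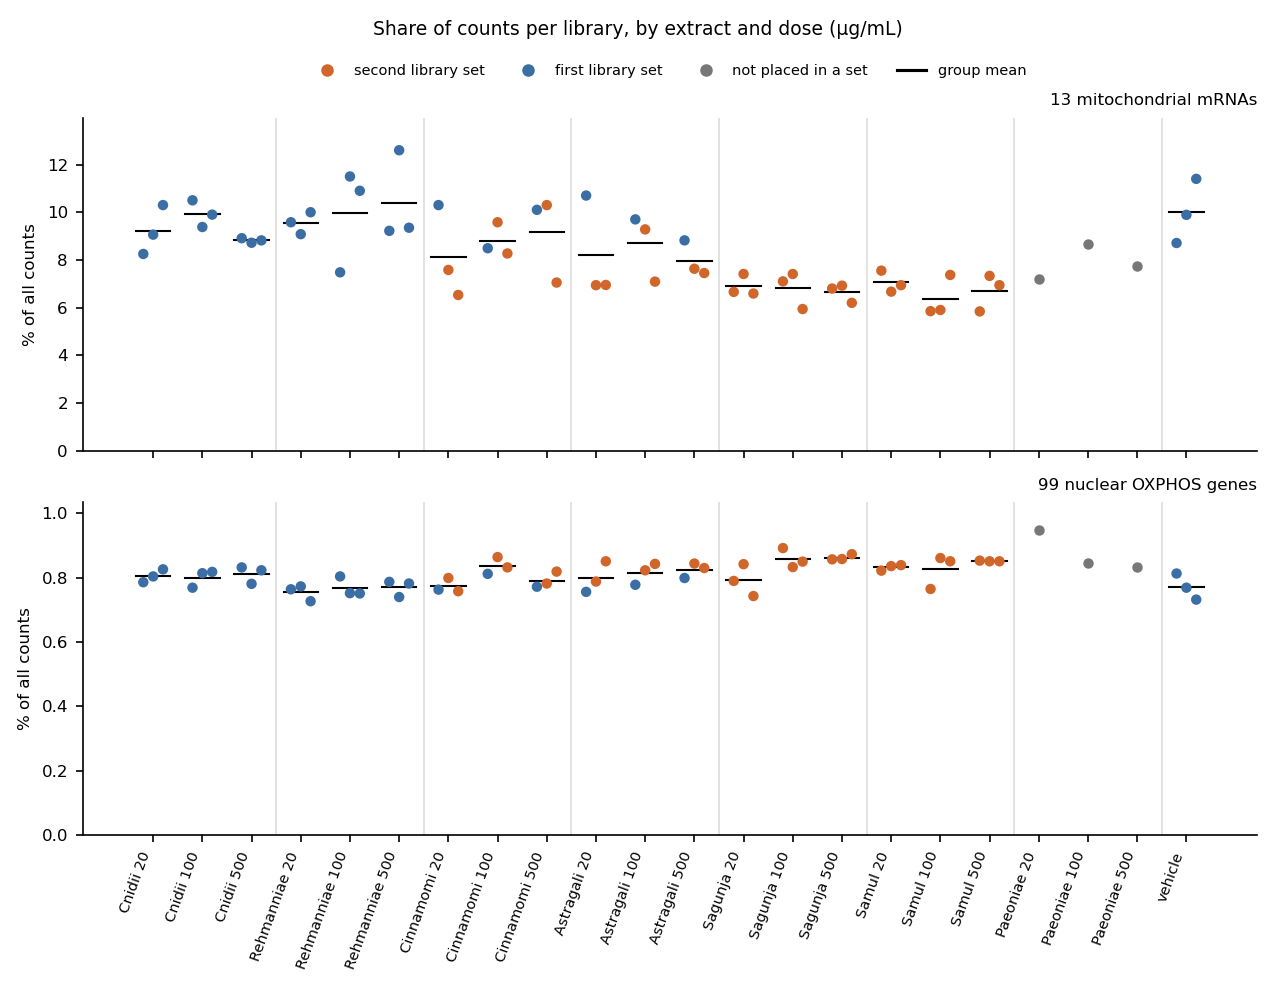
Share of counts (%) taken by the 13 mitochondrial mRNAs and by the nuclear members, 1 point per library, by extract and dose in µg/mL, with the library sets marked. The 18 formula libraries lie between 5.84% and 7.55% for the mitochondrial mRNAs, below the vehicle libraries at 8.71% to 11.4%, and second-set libraries of Cinnamomi Cortex and Astragali Radix mostly lie below the first-set library of their group.

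All 13 mitochondrial mRNAs had fold changes below 0 in all 6 formula comparisons with vehicle, and none was called higher in any of the 36 comparisons made. Calls were made with edgeR's quasi-likelihood test, under an adjusted p of 0.05 (Benjamini-Hochberg over 16356 genes). Called lower were 8, 10 and 11 of 13 after 20, 100 and 500 µg/mL Sagunja-tang, where 8.63%, 7.04% and 8.28% of all genes were called lower. After Samul-tang 5, 10 and 10 were called lower at 20, 100 and 500 µg/mL, where the background was 4.90%, 9.83% and 8.04%. The median log2 fold change of the 13 ran from -0.78 to -0.62 over the 6 comparisons, and that of all genes stayed within 0.01 of 0. All comparisons with vehicle share the same 3 vehicle libraries, so these counts are not separate pieces of evidence. Single libraries moved these counts. The share of all genes called with a library left out is not given here or below. Without vehicle replicate 3, 0, 0 and 2 of the 13 were called for 20, 100 and 500 µg/mL Sagunja-tang and 0, 2 and 1 for Samul-tang. That library had the highest mitochondrial share of the 3 vehicle libraries. Nuclear calls fell without it too, from 37 to 6 at Sagunja-tang 500. Without vehicle replicate 2, 3 were called for each of Sagunja-tang 20 and 100 and 0 for Samul-tang 20. Leaving out replicate 3 of Sagunja-tang at 20, 100 and 500 gave 0, 0 and 2, and leaving out its replicate 1 gave 1, 5 and 6. For Samul-tang 20, leaving out replicate 1, 2 or 3 gave 1, 0 and 0. Samul-tang 100 gave 5 without replicate 1 or 2, and Samul-tang 500 gave 0 without replicate 1 and 6 without replicate 3.

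With the library set term, no mitochondrial mRNA was called in any of the 36 comparisons. At an unadjusted p under 0.05 the 6 formula comparisons held 1 at Sagunja-tang 500, 3 at Samul-tang 100 and 0 in the other 4. At Sagunja-tang 500 and Samul-tang 100, 2285 and 1734 of all 16356 genes had such a p. Of all genes, 0.605%, 0.611% and 2.08% were called with the term after 20, 100 and 500 µg/mL Sagunja-tang and 0.367%, 0.55% and 1.17% after Samul-tang. The medians of the 13 then ran from -0.42 to -0.26 in the formula comparisons, still below 0. With the term they ran from -0.24 to 0.08 for Cnidii Rhizoma and Rehmanniae Radix Preparata against vehicle. For Cinnamomi Cortex and Astragali Radix against vehicle they ran from -0.18 to 0.05. The median standard error (SE) of a mitochondrial mRNA in these comparisons was 0.222 with the term and 0.208 without it.

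**Figure D2:**
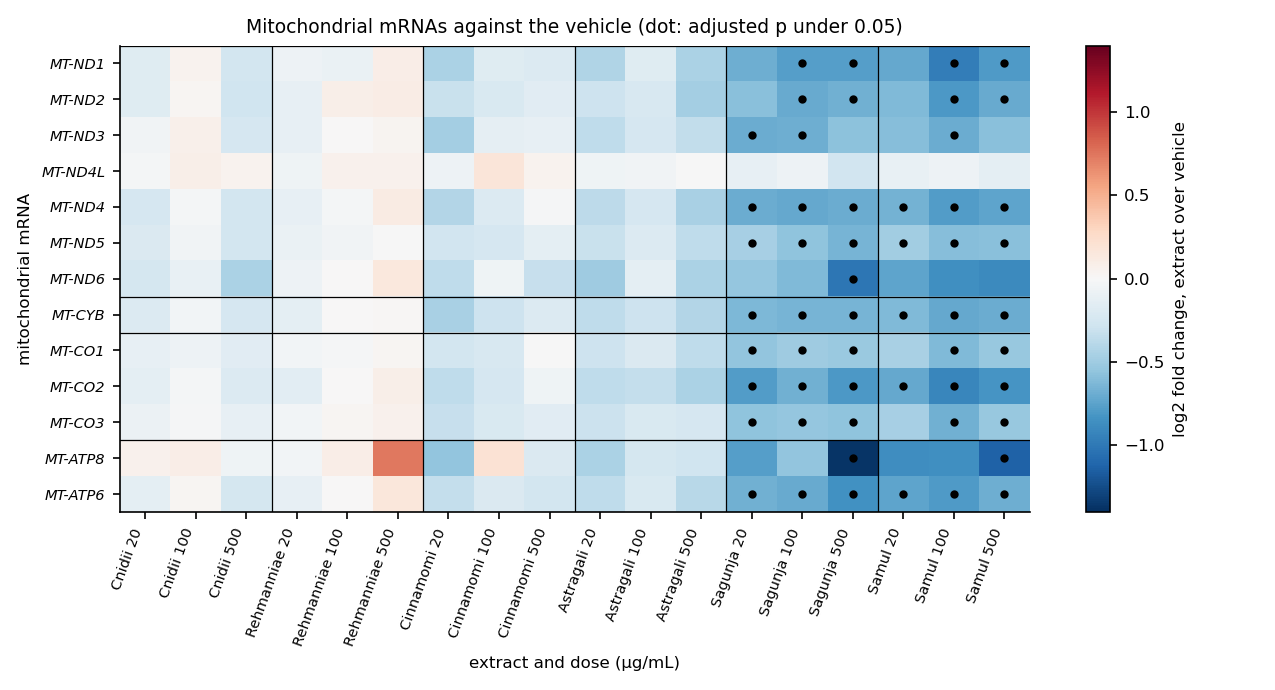
Log2 fold change against vehicle of each of the 13 mitochondrial mRNAs (down the page) in each extract and dose (across, µg/mL), from the fit without the library set term, with called values marked. The formula columns are below 0 throughout and the MT-ND4L entries are the weakest, -0.27 to -0.07.

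Among the mitochondrial mRNAs of complex IV, MT-CO2, which encodes the subunit that takes electrons from cytochrome c, was called in all 6 formula comparisons. It had 6891, 6613 and 5601 CPM after Sagunja-tang 500 and 5166, 6814 and 6785 CPM after Samul-tang 500, against 9573, 11150 and 12633 CPM with vehicle. Every library of both formula groups lay below every vehicle library. The log2 fold changes were -0.80 ± 0.21 and -0.83 ± 0.21 (SE, n = 3 against 3; adjusted p = 0.0064 and 0.0059, edgeR). MT-CO1, the catalytic subunit, had 16817, 17379 and 15536 CPM after Sagunja-tang 500 and 21141, 22937 and 27273 CPM with vehicle, again without overlap (-0.52 ± 0.17, adjusted p = 0.027, edgeR). MT-CO1 and MT-CO3 were called in 5 of the 6 comparisons. MT-CYB, the only complex III subunit of mitochondrial DNA, was called in all 6, at -0.72 to -0.62.

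Among the 7 complex I mRNAs, MT-ND4 and MT-ND5, both subunits of the membrane arm, were called in all 6 formula comparisons, MT-ND1 and MT-ND2 in 4, MT-ND3 in 3 and MT-ND6 in 1. MT-ND6 is the one protein-coding gene of the light strand (chrM:14149-14673, minus strand, GRCh38). It had 171, 219 and 154 CPM after Sagunja-tang 500, against 329.9, 345 and 425 CPM with vehicle, a log2 fold change of -1.01 ± 0.35 (adjusted p = 0.034, edgeR). Its groups did not overlap, and per length it was the lowest of the 13 mRNAs, at 698 ± 97.6 CPM per kb with vehicle, where MT-CO3 was the highest at 20012 ± 1991 CPM per kb (SD, n = 3). MT-ND4L, another small membrane subunit, was the exception among the 13. It had 927, 1061 and 1017 CPM after Sagunja-tang 500 and 1045, 1176 and 1072 CPM after Samul-tang 500, against 1213, 1188 and 1225 CPM with vehicle, and was called in none of the 36 comparisons. Its values lay below vehicle in these 2 groups, but its fold changes over the 6 formula comparisons were only -0.27 to -0.07.

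MT-ATP8 with MT-ATP6 and MT-ND4L with MT-ND4 are pairs of overlapping reading frames known to be translated from shared mRNAs, so that expected counts divide reads of the same molecules between gene names. The complex V genes MT-ATP8 and MT-ATP6 share 46 bases (chrM:8527-8572, plus strand), and MT-ND4L and MT-ND4 share 7 (chrM:10760-10766, plus strand). The shared bases are shown in capitals with 30 bases on each side, from GENCODE 29 transcripts on GRCh38, because reads that cover only these bases belong to both genes of a pair.
MT-ATP8 and MT-ATP6: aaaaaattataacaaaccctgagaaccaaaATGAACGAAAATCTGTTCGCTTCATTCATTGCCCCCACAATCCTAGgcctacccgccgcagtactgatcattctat
MT-ND4L and MT-ND4: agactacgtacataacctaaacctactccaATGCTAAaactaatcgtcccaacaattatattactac
MT-ATP8 had the largest fold changes of the 13 at 500 µg/mL. It had 252, 258 and 184 CPM after Sagunja-tang and 239, 318 and 261 CPM after Samul-tang, against 435, 682 and 680.2 CPM with vehicle, without overlap. The log2 fold changes were -1.37 ± 0.37 and -1.13 ± 0.37 (adjusted p = 0.0086 and 0.028, edgeR). MT-ATP6 fell by 0.85 ± 0.23 on the log2 scale after Sagunja-tang 500 (adjusted p = 0.0092, edgeR) and was called in all 6 formula comparisons.

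The counts of MT-ATP8 were 4.62 ± 0.205% of those of MT-ATP6 after Sagunja-tang 500 and 4.86 ± 0.0421% after Samul-tang 500, against 6.62 ± 0.684% with vehicle (SD, n = 3 each). At the lower doses the 4 formula groups averaged 6.04% to 7.45%. This ratio was 6.17 ± 1.7% over the 30 second-set libraries and 7.46 ± 1.17% over the 27 first-set libraries (SD). The counts of MT-ND4L, in the other direction, were 14.2 ± 1.94% of those of MT-ND4 over the 18 formula libraries, against 9.56 ± 1.86% over the 3 vehicle libraries (SD). That ratio was 13.6 ± 1.96% over the 30 second-set libraries and 10 ± 1.26% over the 27 first-set libraries (SD). For both ratios these set means cannot tell set from formula, because the second set holds all 18 formula libraries and the first all vehicle libraries. In the Cinnamomi Cortex and Astragali Radix groups, MT-ND4 was lower in 10 of 12 second-set libraries than in the first-set library of their group. MT-ND4L was lower in 5 of 12 and higher in 7. The ratios themselves were not compared within these groups.

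Some mitochondrial reads can also be assigned to nuclear copies of mitochondrial DNA. MTATP6P1 (chr1:633696-634376), which is 98.5% identical to MT-ATP6, took 10.5% to 19.2% of the counts of the pair, with a median of 14.1% in formula and in vehicle libraries alike. Of the 582 windows of 100 bases in MT-ATP6, 69 (11.9%) occurred exactly in the copy. Summing both gave a log2 difference of -0.88 after Sagunja-tang 500, where MT-ATP6 alone gave -0.85. MTND2P28 took 2.85% to 5.22% of its pair with MT-ND2, and the sum gave -0.66 where MT-ND2 alone gave -0.67. The mitochondrial rRNA MT-RNR2 was called lower after Sagunja-tang 500, at -0.37 ± 0.10 (adjusted p = 0.0082), and after Samul-tang 500, at -0.33 ± 0.10 (adjusted p = 0.017), both in edgeR, while MT-RNR1 was called in neither. With the library set term MT-RNR2 was called in neither, at -0.24 ± 0.11 and -0.20 ± 0.11 (adjusted p = 0.34 and 0.46, edgeR).

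At 100 and 500 µg/mL of the formulae more nuclear members were called higher than lower, while at Sagunja-tang 20 more were called lower. Of the 99, 92 passed the filter on low counts. COX4I2, COX6A2, COX7B2 and COX8C, isoforms known from lung, muscle or testis, had 0 counts in all 60 libraries, which allows a level of up to 0.0828 to 0.147 CPM by library (3 counts, counting error only). COX7A1, the muscle isoform, had a median of 3.5 counts, ATP5MGL at most 2, and NDUFC2-KCTD14 counts in 11 of 60 libraries. The other low isoforms, NDUFA4L2 and COX6B2, stood at 0.341 to 0.637 CPM and 0.251 to 0.454 CPM in the vehicle libraries, and neither was called in any comparison.

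After 20, 100 and 500 µg/mL Sagunja-tang, 7, 23 and 36 of the 92 nuclear members were called higher than with vehicle and 13, 2 and 1 lower. Of all genes tested there, 9.43%, 9.24% and 11.6% were called higher and the share called lower was given above. The members called higher were 7.61%, 25.0% and 39.1% of the 92, and those called lower 14.1%, 2.17% and 1.09%. After Samul-tang, 6, 16 and 27 were called higher, where the background was 5.58%, 11.8% and 10.1%, and 2, 7 and 1 lower. Counts above the background were thus found for higher calls at 500 µg/mL of both formulae, at 100 µg/mL of Sagunja-tang and, by a smaller margin, of Samul-tang. Lower calls were above the background at Sagunja-tang 20, where 14.1% of the members stood against 8.63% of all genes. The median log2 fold change of the 92 was 0.14 and 0.13 at 500 µg/mL of Sagunja-tang and Samul-tang, and 0.02 and 0.06 at 20 µg/mL.

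By complex, Sagunja-tang 500 had 18 of 37 complex I genes called higher, 2 of 4 of complex II, 2 of 10 of complex III, 6 of 14 of complex IV, 6 of 17 of complex V and 2 of the 8 assembly factors. Samul-tang 500 had 11, 2, 2, 5, 5 and 2 in the same order. The only nuclear member called lower at 500 µg/mL of either was NDUFA12. Over the 6 formula comparisons, 38 nuclear members were called higher at least once, 15 lower at least once, none in both directions, and 39 not at all. The matching counts over all genes are not given here and the comparisons share the vehicle libraries. These 4 counts therefore describe the members and do not set them apart from other genes.

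**Figure D3:**
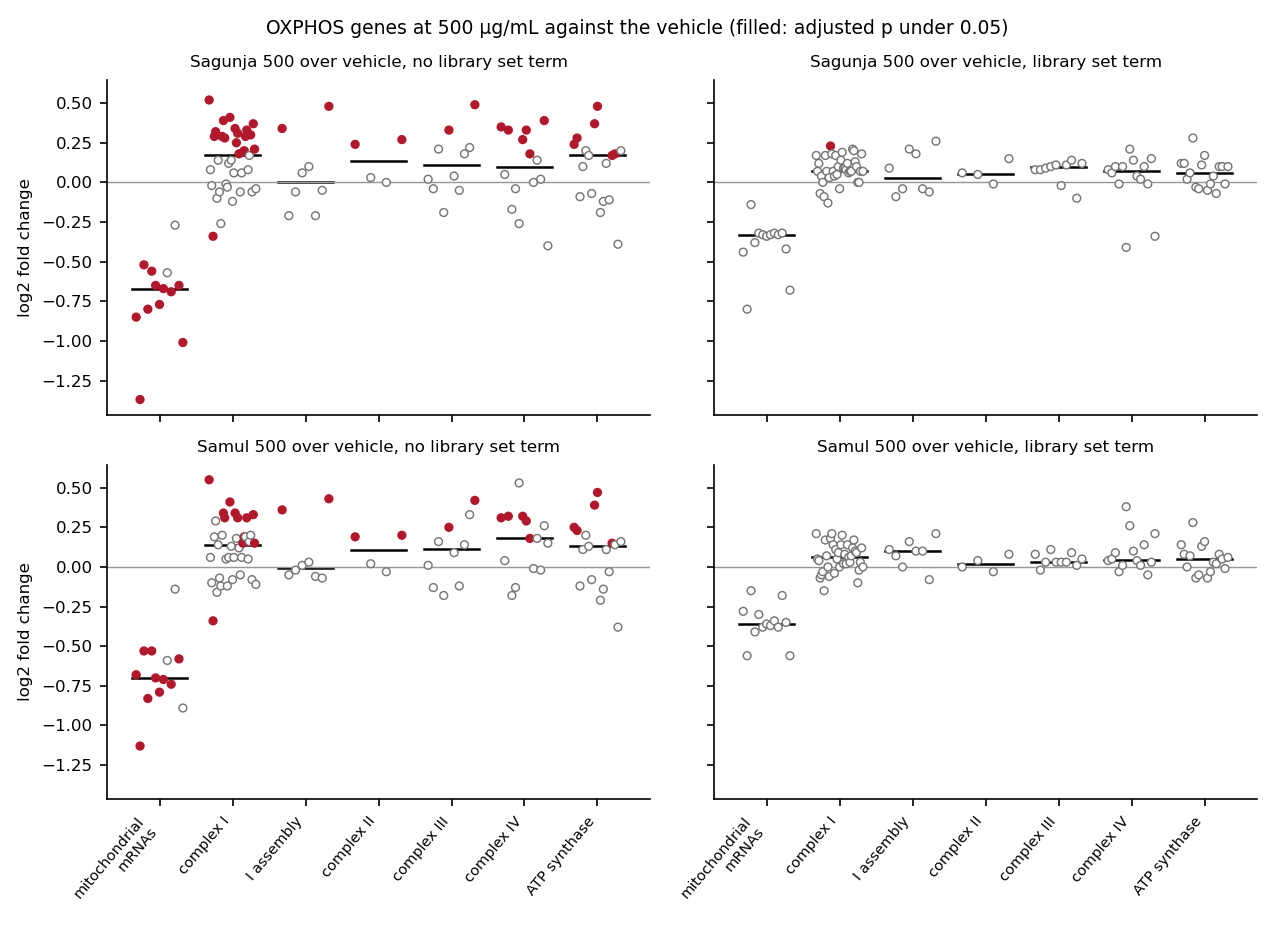
Log2 fold change over vehicle of each tested member at 500 µg/mL of Sagunja-tang and Samul-tang, without and with the library set term, with the mitochondrial mRNAs in the leftmost column and the nuclear members by complex (ATP5IF1 and readthrough genes left out). Points are genes, filled where called, and bars are medians; without the term the mitochondrial mRNAs lie below 0 and 18 and 11 complex I genes are filled above 0, and with it NDUFA9 after Sagunja-tang is the one filled point.

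The nuclear members called higher in all 6 formula comparisons were 4, NDUFV1, NDUFA9, UQCRC1 and ATP5F1B. The share of all genes called in all 6 is not given here. NDUFV1, which carries the NADH binding site of complex I, had 131, 128 and 133 CPM after Sagunja-tang 500 and 131, 125 and 124 CPM after Samul-tang 500, against 106, 101 and 96 CPM with vehicle, without overlap. Its log2 fold changes were 0.37 ± 0.09 and 0.33 ± 0.09 (adjusted p = 0.0042 and 0.011, edgeR). NDUFA9, an accessory subunit near the ubiquinone site of complex I, had 72.6, 73.6 and 75.2 CPM after Sagunja-tang 500 and 75.7, 68.8 and 69.6 CPM after Samul-tang 500, against 58.7, 58.3 and 52.1 CPM with vehicle. All libraries of both formula groups lay above all vehicle libraries (0.39 ± 0.06 and 0.34 ± 0.06, adjusted p = 3.9e-05 and 0.0003, edgeR). UQCRC1, a core subunit of complex III, had 103, 106 and 99.9 CPM after Sagunja-tang 500, against 82.6, 83.3 and 79.1 CPM with vehicle (0.33 ± 0.07, adjusted p = 0.00088, edgeR). ATP5F1B, the catalytic beta subunit of complex V, had 518, 558 and 527 CPM, against 475, 442 and 403 CPM (0.28 ± 0.06, adjusted p = 0.0014, edgeR). Neither gene's groups overlapped.

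The largest rises were in 3 small subunits and an assembly factor, NDUFAF8. After Sagunja-tang 500 they were NDUFA1 at 0.52 ± 0.15, UQCRQ at 0.49 ± 0.15, NDUFAF8 at 0.48 ± 0.10 and ATP5ME at 0.48 ± 0.15 (adjusted p = 0.014, 0.018, 0.0013 and 0.019, edgeR). The same 4 genes led after Samul-tang 500, at 0.42 to 0.55. NDUFA1, an accessory subunit of the membrane arm, had 27.9, 27.5 and 31 CPM after Sagunja-tang 500, against 24.1, 19.1 and 16.8 CPM with vehicle, so the vehicle libraries themselves were spread. In complex II, SDHA, the flavoprotein that oxidises succinate, had 272, 269.7 and 270.2 CPM, against 242, 227 and 216 CPM (0.24 ± 0.06, adjusted p = 0.0065, edgeR), and was called in 5 of the 6 comparisons. ATP5F1A, the alpha subunit of complex V, was also called in 5, and COX4I1, the common isoform of its complex IV subunit, in 4.

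NDUFA12, an accessory subunit at the peripheral arm of complex I, was called lower in all 6 formula comparisons. It had 30.2, 40.4 and 31.6 CPM after Sagunja-tang 20, 42.4, 41.1 and 33.3 CPM after 100 and 40.4, 39.5 and 39.4 CPM after 500, with the vehicle libraries at 47.3, 49.6 and 54.5 CPM. No formula library among these reached the vehicle range, and the fold change was largest at 20 µg/mL (-0.56 ± 0.11, adjusted p = 0.00085, edgeR). ATP5PF, coupling factor 6 of the complex V stalk, was called lower in 4 of the 6. It had 34.5, 45.7 and 33.5 CPM after Sagunja-tang 20, against 56, 56.8 and 64.4 CPM with vehicle (-0.64 ± 0.14, adjusted p = 0.0033, edgeR). ATP5IF1, which inhibits ATP hydrolysis by complex V, and COX6A1, a liver-type subunit of complex IV, were called lower after Sagunja-tang 20, with log2 fold changes of -0.37 ± 0.10 each (adjusted p = 0.011 each, edgeR). UQCRB, a ubiquinone-binding subunit of complex III, was called lower after Samul-tang 100, at -0.33 ± 0.11 (adjusted p = 0.025, edgeR).

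**Figure D4:**
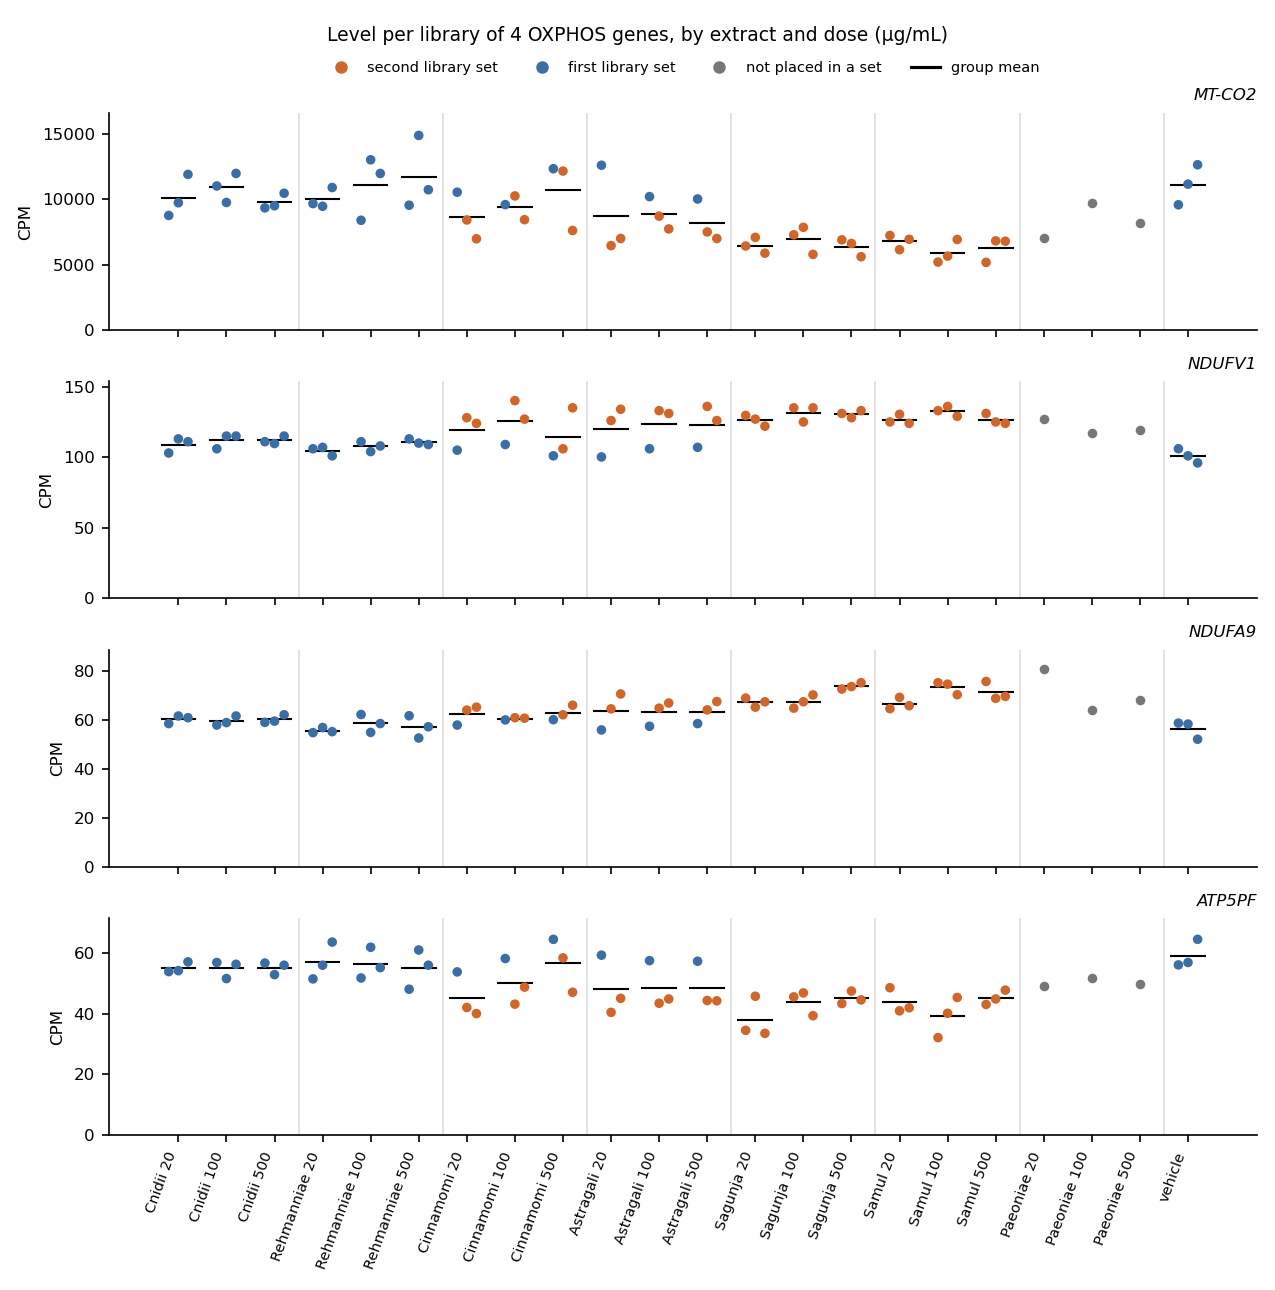
CPM of MT-CO2, NDUFV1, NDUFA9 and ATP5PF in each library by extract and dose (µg/mL), with the library sets marked and the vehicle shown in each panel. MT-CO2 and ATP5PF are lower, and NDUFV1 and NDUFA9 higher, in formula libraries than in vehicle libraries, and second-set libraries of Cinnamomi Cortex and Astragali Radix mostly lie to the same side of the first-set library of their group.

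These nuclear values too moved with the library set. Of the 38 members called higher in a formula comparison, 36 were higher in at least 9 of the 12 second-set Cinnamomi Cortex and Astragali Radix libraries than in the first-set library of the same extract and dose, and of the 15 called lower, 14 were lower in at least 9. Among the 39 called in neither direction, 6 were higher and 11 lower in at least 9. NDUFV1, NDUFA9, UQCRC1 and ATP5F1B were higher in 12 of 12, and NDUFA12, ATP5PF and MT-CO1 were lower in 12 of 12. Of the 12 mitochondrial mRNAs called lower with a formula, 8 were lower in at least 9 of the 12. Each first-set library served for 2 second-set libraries, so the 12 are not separate checks. The matching counts over all genes are not given here.

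With the library set term, 1 of the 141 formula calls on nuclear members was still made. At 20, 100 and 500 µg/mL of Sagunja-tang, 7, 5 and 12 of the 92 nuclear members had an unadjusted p under 0.05. Of all 16356 genes, 1491, 1705 and 2285 had such a p there. For Samul-tang they were 0, 3 and 6 nuclear members, against 1217, 1734 and 2101 of all genes. In each of these comparisons the members' share was below that of all genes. The called gene was NDUFA9 after Sagunja-tang 500, at 0.23 ± 0.06 (adjusted p = 0.025, edgeR), where 1.07% of all genes were called higher with the term. Without the term, NDUFA9 kept its call there when any 1 of the 6 libraries was left out, at 0.33 to 0.42. NDUFV1 gave 0.07 ± 0.06 and NDUFA12 -0.07 ± 0.10 in that comparison (adjusted p = 0.65 and 0.8, edgeR). The nuclear medians of the 6 comparisons then ran from -0.07 to 0.08, and the median SE was 0.092, against 0.09 without the term. Without the term, single libraries moved the counts here too, and the share of all genes called in those fits is not given. Without vehicle replicate 3, 8, 1 and 6 nuclear members were called at 20, 100 and 500 µg/mL of Sagunja-tang and 0, 6 and 2 of Samul-tang, and without vehicle replicate 2 they were 11, 10 and 21 of Sagunja-tang and 2, 11 and 13 of Samul-tang. Without vehicle replicate 1, Samul-tang 20 gave 17. Leaving out replicate 3 of Sagunja-tang at 20, 100 and 500 gave 4, 7 and 18. Its replicate 1 gave 6 at 20 and 11 at 100, and its replicate 2 gave 24 at 500. Leaving out replicate 2 of Samul-tang at 20, 100 and 500 gave 0, 15 and 15, and replicate 1 at 500 gave 5. With no vehicle library in the second set, formula and library set were separated only through the Cinnamomi Cortex and Astragali Radix groups, on the assumption that the set difference seen there applies to the formula libraries.

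With the single plants few members were called. Cnidii Rhizoma and Rehmanniae Radix Preparata, whose libraries lie in the same set as the vehicle, had no member of either genome called at any dose in edgeR with the filter on low counts. Without the filter edgeR called 4, 0 and 9 mitochondrial mRNAs after 20, 100 and 500 µg/mL Cnidii Rhizoma and 1 after Rehmanniae Radix Preparata 500. It called 0 or 1 nuclear member in each comparison. In that fit the median SE of a mitochondrial mRNA in the formula comparisons was 0.05, against 0.208 with the filter. The share of all genes called without the filter is not given here. With the filter, 0.293%, 0.147% and 1.38% of all genes were called in either direction after 20, 100 and 500 µg/mL Cnidii Rhizoma. After Rehmanniae Radix Preparata they were 0.44%, 0.202% and 0.593%. At an unadjusted p under 0.05 these 6 comparisons held 0 to 1 mitochondrial mRNAs and 0 to 3 nuclear members each, and DESeq2 called none. Of all 16356 genes, 954 to 1897 had such a p in each. The mitochondrial share was 9.2 ± 1.03%, 9.92 ± 0.542% and 8.82 ± 0.0939% after 20, 100 and 500 µg/mL Cnidii Rhizoma and 9.56 ± 0.465%, 9.97 ± 2.16% and 10.4 ± 1.94% after Rehmanniae Radix Preparata (SD, n = 3 each), which overlapped the vehicle libraries in each group. MT-ND5 was the mitochondrial mRNA with the most even direction, at -0.36 to -0.01 in all 12 comparisons of the 4 single plants with vehicle. MT-ATP8 after Rehmanniae Radix Preparata 500 had the largest rise, 0.74, and was not called.

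Astragali Radix had no mitochondrial mRNA called at any dose with the filter. Without it, in the fit with the smaller SE given above, 12, 11 and 12 were called at 20, 100 and 500 µg/mL. With the filter 1 nuclear member was called, SDHA at 500 µg/mL (0.22 ± 0.06, adjusted p = 0.046, edgeR). Of all genes, 1.39%, 2.43% and 3.61% were called with the filter at 20, 100 and 500 µg/mL. At an unadjusted p under 0.05, 0, 0 and 5 mitochondrial mRNAs were below vehicle at 20, 100 and 500 µg/mL, and DESeq2 called no mitochondrial mRNA. Nuclear members at an unadjusted p under 0.05 numbered 11, 14 and 12 of 92, where 2582, 3017 and 3198 of all 16356 genes had such a p. The members' share was below that of all genes at each dose. DESeq2 called 0, 1 and 2 nuclear members. The SDHA call was lost with the library set term, without vehicle replicate 2 or 3, and without replicate 2 or 3 of the group. Without replicate 1 of each group, its one first-set library, 9, 5 and 5 nuclear members were called at 20, 100 and 500 µg/mL and 5, 0 and 0 mitochondrial mRNAs. Cinnamomi Cortex had no mitochondrial mRNA called with the filter. Without it, again in the fit with the smaller SE, 12, 11 and 7 were called at 20, 100 and 500 µg/mL. With the filter 0, 6 and 3 nuclear members were called higher at 20, 100 and 500 µg/mL and none lower. At an unadjusted p under 0.05 the mitochondrial mRNAs numbered 2 at 20 µg/mL and 0 at the higher doses, and DESeq2 called no mitochondrial mRNA. At 20 µg/mL 18 of 92 nuclear members, 6 higher and 12 lower, were at an unadjusted p under 0.05, as were 2893 of all 16356 genes. DESeq2 called 2 nuclear members at that dose. Of all genes, 1.69%, 7.84% and 12.7% were called there in either direction, and 3.74% and 6.09% were called higher at 100 and 500 µg/mL. The 6 at 100 µg/mL were UQCRHL, ATP5MF-PTCD1, ATP5MC3, NDUFB7, NDUFV1 and NDUFS4, at 0.30 to 0.76; none was called with the set term. Without replicate 2 of that group 0 were called, without replicate 3 or vehicle replicate 2 or 3 there were 2, and without replicate 1 there were 16. At 20 µg/mL, 10 were called without replicate 1, with 1 mitochondrial mRNA, and 1 without vehicle replicate 3. UQCRHL is a near copy of UQCRH, and ATP5MF-PTCD1 is a readthrough gene, so both share reads with other members and their counts are uncertain. UQCRHL had 6.53, 14.2 and 7.16 CPM there, so 1 library carried its rise.

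Cinnamomi Cortex was the only extract with members called between its doses in the fit without the set term. At 500 against 20 µg/mL, 6 nuclear members were called higher and none lower, in a contrast that needs no vehicle and where by sample code each dose has 1 library of the first set and 2 of the second. By the first principal component, replicate 2 of the 500 µg/mL group lay among the first-set libraries, so that the contrast is not balanced by expression. That was 6 of 92 where 4.51% of all genes were called higher and 10.1% in either direction, so the number of calls by itself sets the members little apart. All 6 were also called with the library set term, which added NDUFA12, ATP5PF and NDUFAF4, where 6.65% of all genes were called higher. The second-set over first-set difference was below 0 for all 9, at -0.16 to -0.02 for the 6 and -0.27, -0.37 and -0.15 for the added genes. With replicate 2 of the 500 µg/mL group placed in the first set, SDHB, UQCRFS1, CYC1 and NDUFAF2 were still called (0.21, 0.20, 0.17 and 0.34), and NDUFB4 and NDUFB5 were not (0.23 and 0.17, adjusted p = 0.086 and 0.069, edgeR). In Cnidii Rhizoma, Rehmanniae Radix Preparata, Astragali Radix and Samul-tang, the same contrast of doses called no member in edgeR or DESeq2, and 0.397%, 0.171%, 0.0795% and 0.141% of all genes. At an unadjusted p under 0.05 these 4 held 0 to 1 mitochondrial mRNAs and 1 to 4 nuclear members, and 897 to 1290 of all 16356 genes. Without replicate 3 of Cinnamomi Cortex 20 there was 1 call, SDHB, without replicate 1 or 2 of Cinnamomi Cortex 500 there were 3, and without replicate 1 of Cinnamomi Cortex 20 there were 10. The 13 mitochondrial mRNAs had a median of 0.25 with no call in edgeR or DESeq2 and none at an unadjusted p under 0.05. Without the filter on low counts, in the fit with the smaller SE given above, edgeR called 9.

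SDHB, the iron-sulfur subunit of complex II, had 67.8 to 73.2 CPM at 20 µg/mL, 72.9 to 76.2 CPM at 100 and 80.1 to 81.6 CPM at 500. The vehicle libraries had 70.5, 71.5 and 69.2 CPM. The 500 µg/mL libraries lay above every other library of the extract and of the vehicle. The log2 fold change was 0.21 ± 0.05 against 20 µg/mL (adjusted p = 0.0008), 0.20 ± 0.05 against vehicle (adjusted p = 0.0017) and, with the set term, 0.21 ± 0.04 and 0.21 ± 0.05 (adjusted p = 0.00046 and 0.0019), all in edgeR. Leaving out any 1 library, the call was kept in both contrasts, at 0.19 to 0.25 against 20 µg/mL and 0.19 to 0.21 against vehicle.

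In complex III, UQCRFS1, the Rieske iron-sulfur protein, had 159, 157 and 142 CPM at 500 µg/mL, against 137, 131 and 116 CPM at 20, without overlap (0.25 ± 0.06, adjusted p = 0.0055, edgeR). With vehicle it had 147, 141 and 141 CPM, so against vehicle the difference was small (0.09 ± 0.06, adjusted p = 0.38, edgeR), and it was called there only with the set term (0.20 ± 0.06, adjusted p = 0.011). CYC1, cytochrome c1, had 157, 149.8 and 147 CPM at 500 and 134, 139 and 123 CPM at 20 (0.19 ± 0.05, adjusted p = 0.0051, edgeR), also without overlap. With vehicle CYC1 had 127, 137 and 141 CPM, and it was called against vehicle as well (0.16 ± 0.05, adjusted p = 0.019, edgeR; 0.20 ± 0.05, adjusted p = 0.0028 with the set term). That call against vehicle was lost without vehicle replicate 1 (0.12, adjusted p = 0.15) or replicate 1 of the 500 µg/mL group (0.14, adjusted p = 0.075).

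The other 3 belong to complex I. NDUFB4, a membrane arm subunit, had 114, 116 and 105 CPM at 500 µg/mL, against 103, 96.7 and 79.5 CPM at 20 (0.26 ± 0.09, adjusted p = 0.044, edgeR), without overlap. NDUFB5, another, had 44.9, 47.3 and 39.9 CPM, against 41.5, 36.1 and 37.5 CPM, with overlap of 1 library (0.20 ± 0.07, adjusted p = 0.04, edgeR). NDUFAF2, an assembly factor related to NDUFA12, had 21.5, 22.1 and 17.6 CPM, against 17.4, 17 and 12.3 CPM (0.39 ± 0.12, adjusted p = 0.024, edgeR). The vehicle libraries of NDUFB4, at 116, 107 and 114 CPM, overlapped the 500 µg/mL libraries and lay above all 20 µg/mL libraries. Replicate 3 of the 20 µg/mL group was the lowest of these libraries for NDUFB4 and NDUFAF2.

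**Figure D5:**
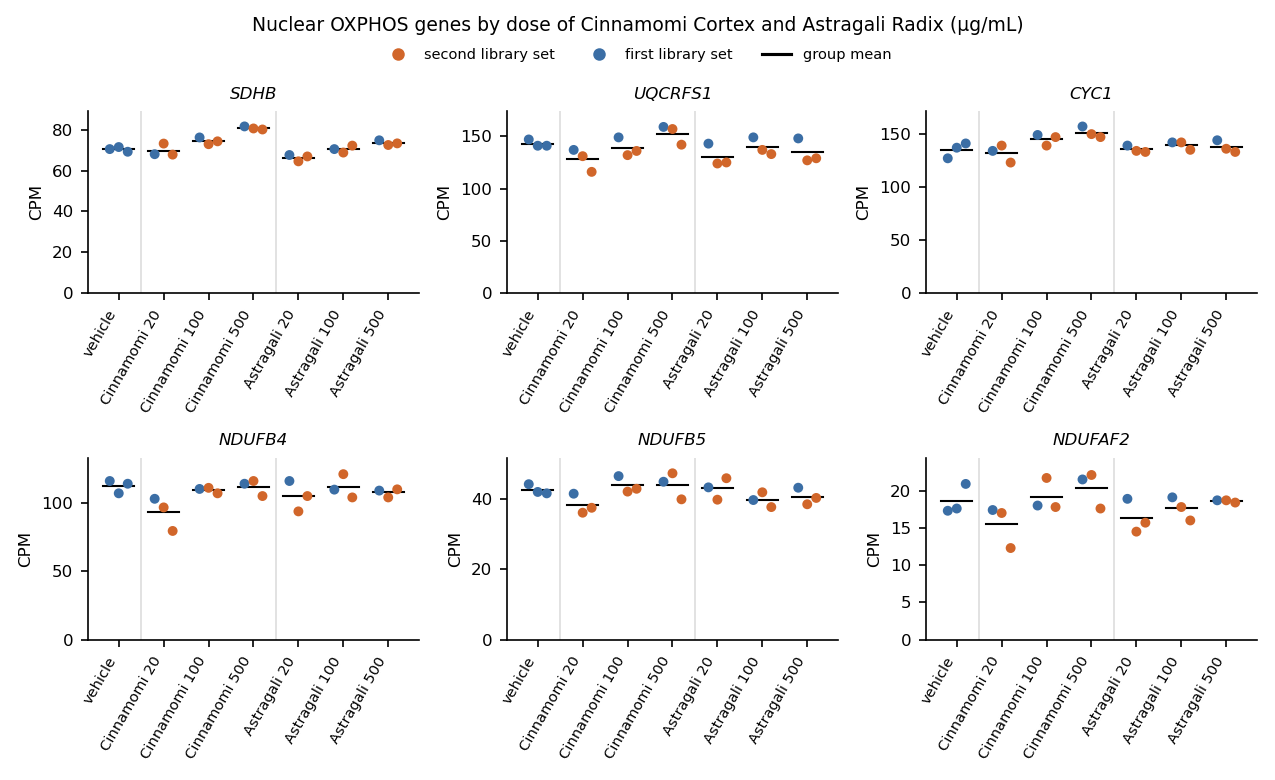
CPM of SDHB, UQCRFS1, CYC1, NDUFB4, NDUFB5 and NDUFAF2 in vehicle libraries and after 20, 100 and 500 µg/mL Cinnamomi Cortex or Astragali Radix, 1 point per library, with group means as bars and the library sets marked. The 3 SDHB libraries at 500 µg/mL Cinnamomi Cortex, 80.1 to 81.6 CPM, lie above all others, while the 20 µg/mL libraries of NDUFB4 and NDUFAF2 reach below the vehicle libraries.

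Promoters of 3 of these 6 genes and of NDUFA9 are shown because respiratory chain promoters are known for shared sites of NRF1, of ETS factors such as GABPA, and of YY1. Each run covers 250 bases before to 50 after the start in RefSeq on GRCh38.p14, 5′ to 3′ on the gene's strand, with motif matches in capitals. SDHB lies at chr1:17053983-17054282 (minus), NDUFB4 at chr3:120596086-120596385 (plus), UQCRFS1 at chr19:29213102-29213401 (minus) and NDUFA9, the member called with a formula in both fits, at chr12:4648864-4649163 (plus).
SDHB: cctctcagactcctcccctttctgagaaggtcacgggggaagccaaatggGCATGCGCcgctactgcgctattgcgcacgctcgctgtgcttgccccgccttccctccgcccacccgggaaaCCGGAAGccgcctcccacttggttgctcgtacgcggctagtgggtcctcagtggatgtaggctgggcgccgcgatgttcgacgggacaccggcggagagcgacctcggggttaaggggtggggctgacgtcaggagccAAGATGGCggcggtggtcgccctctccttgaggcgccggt
NDUFB4: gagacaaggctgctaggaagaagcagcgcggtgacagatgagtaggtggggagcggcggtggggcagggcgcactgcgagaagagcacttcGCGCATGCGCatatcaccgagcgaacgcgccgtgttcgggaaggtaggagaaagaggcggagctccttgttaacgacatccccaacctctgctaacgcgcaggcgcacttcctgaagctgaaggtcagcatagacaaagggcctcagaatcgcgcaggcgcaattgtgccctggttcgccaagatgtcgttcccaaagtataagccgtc
UQCRFS1: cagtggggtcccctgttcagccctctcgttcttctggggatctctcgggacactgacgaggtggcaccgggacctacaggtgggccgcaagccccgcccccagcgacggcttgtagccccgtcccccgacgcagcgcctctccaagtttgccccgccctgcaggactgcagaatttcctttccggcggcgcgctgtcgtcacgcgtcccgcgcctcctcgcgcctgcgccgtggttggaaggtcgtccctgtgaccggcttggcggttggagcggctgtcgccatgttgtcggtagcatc
NDUFA9: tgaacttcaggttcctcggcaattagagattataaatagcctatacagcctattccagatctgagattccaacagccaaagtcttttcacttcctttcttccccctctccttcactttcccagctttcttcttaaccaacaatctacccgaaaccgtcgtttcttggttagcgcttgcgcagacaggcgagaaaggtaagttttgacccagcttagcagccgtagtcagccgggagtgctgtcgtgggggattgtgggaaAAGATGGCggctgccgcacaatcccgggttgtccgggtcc
The letters searched on both strands were GCATGCGC for the NRF1 core, the full NRF1 letters, which are GC followed by that core, AAGATGGC for YY1 and CCGGAAG for ETS factors. SDHB held the NRF1 core, ETS and YY1 letters, NDUFB4 the full NRF1 letters, and NDUFA9 the YY1 letters at its start, while UQCRFS1 held none of them in this window, and neither did NDUFAF2, which is not shown.

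Promoters were found for 78 of the 99 nuclear members, 96 promoters in all, among 35116 in the table. The NRF1 letters were in 5.21% of the members' promoters and in 1.24% of all promoters, and the core letters in 17.7% and 3.05%. The YY1 letters were in 15.6% and 2.89%, and the ETS letters in 26.0% and 10.3%. Over promoters of protein-coding genes alone, the shares were 1.48%, 3.75%, 3.59% and 12.9% for NRF1, its core, YY1 and ETS. A match is a description of letters and says nothing of binding in HT29 cells.

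Between extracts at the same dose, SDHB was the only member called, higher with Cinnamomi Cortex than with Astragali Radix at 500 µg/mL. It had 81.6, 80.6 and 80.1 CPM with Cinnamomi Cortex, against 74.8, 72.5 and 73.3 CPM with Astragali Radix, without overlap (0.13 ± 0.05, adjusted p = 0.044, edgeR; 0.14 ± 0.04, adjusted p = 0.032 with the set term). Of all genes, 4.90% were called higher there. That SDHB call was lost on leaving out any library of the contrast other than replicate 1 of Astragali Radix 500, at 0.13 to 0.15 throughout. The set term added UQCRFS1 at 0.19 ± 0.05, CYC1 at 0.13 ± 0.05 and NDUFA12 at 0.27 ± 0.08 (adjusted p = 0.008, 0.039 and 0.025, edgeR), where 6.84% of all genes were called higher. In the other 8 contrasts of this kind no member was called in edgeR or DESeq2. At an unadjusted p under 0.05 they held 0 to 1 mitochondrial mRNAs and 1 to 14 nuclear members, and 353 to 860 of all 16356 genes. The 14 of 92 were between Cnidii Rhizoma and Rehmanniae Radix Preparata at 20 µg/mL, 13 higher and 1 lower with Cnidii Rhizoma. There 566 of all genes had such a p, so the members' share was above that of all genes. Between Cinnamomi Cortex and Astragali Radix at 20 µg/mL it was 8 of 92, 1 higher and 7 lower, against 533 of all genes. Of all genes, 0.0%, 0.0% and 0.153% were called between Cnidii Rhizoma and Rehmanniae Radix Preparata at 20, 100 and 500 µg/mL, 0.226%, 0.263% and 0.318% between Sagunja-tang and Samul-tang, and 0.0% and 0.0611% between Cinnamomi Cortex and Astragali Radix at 20 and 100. At 500 µg/mL 10.7% were called between the last pair in either direction. The effect of 500 against 20 µg/mL was compared between Cinnamomi Cortex and Astragali Radix, Cnidii Rhizoma and Rehmanniae Radix Preparata, and Sagunja-tang and Samul-tang. No member was called for a difference of effects in edgeR or DESeq2, where 2.55%, 0.0122% and 0.0% of all genes were called. At an unadjusted p under 0.05 there were 6, 0 and 4 nuclear members and no mitochondrial mRNA. Of all 16356 genes, 2095, 526 and 422 had such a p. For Sagunja-tang 500 against 20, the nuclear members had a median of 0.15, with no call in the fit without the set term, where 1 gene of 16356 (0.00611%) was called at all. At an unadjusted p under 0.05 it held 36 of the 92, all of them higher at 500 µg/mL, and 1564 of all genes. With the set term 2, NDUFAF8 at 0.39 ± 0.09 and SDHD at 0.25 ± 0.05, were called (adjusted p = 0.031 and 0.025, edgeR), where 0.135% of all genes were called higher, and DESeq2 without the term called 2. Leaving out replicate 2 of Sagunja-tang 20 gave 5 calls. The mitochondrial median was -0.09, with no mRNA at an unadjusted p under 0.05.

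Paeoniae Radix had 1 library per dose, so its differences have no replicate check and no test. Its libraries were placed in neither library set, so a set difference from the vehicle libraries cannot be told apart from the extract. The mitochondrial share was 7.18%, 8.68% and 7.75% at 20, 100 and 500 µg/mL, and the nuclear share 0.947%, 0.847% and 0.834%; the 3 libraries lay below and above the vehicle libraries in these shares. Past a log2 difference of 0.5 from the vehicle mean, 9, 0 and 3 mitochondrial mRNAs were lower, where 6.14%, 3.33% and 3.61% of genes were lower, and 19, 1 and 0 nuclear members were higher, where 7.68%, 4.01% and 4.41% of genes were higher. With total counts in place of TMM, the mitochondrial counts were 5, 0 and 1. At 20 µg/mL the largest differences were NDUFA1 at 1.29, ATP5ME at 0.93, COX6C at 0.89 and NDUFB2 at 0.86 among higher members, and MT-ND6 at -1.02 and NDUFA4L2 at -0.94 among lower ones. NDUFA4L2 is a low-count gene, as its CPM above show. MT-ND4L stood at 0.03, again apart from its neighbours.

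Other genes of the pathway were counted from lists of assembly factors and of the mitochondrial expression machinery. The lists are read against the 11.6% and 8.28% of all genes called higher and lower at Sagunja-tang 500 and 10.1% and 8.04% at Samul-tang 500. After Sagunja-tang 500, 11 of 50 assembly factors were called higher and 1 lower, led by FMC1, an assembly factor of complex V, at 0.82 ± 0.18, and TMEM186, of complex I, at 0.49 ± 0.14 (adjusted p = 0.0018 and 0.0085, edgeR). Of 28 genes of mitochondrial RNA processing and stability 10 were higher and none lower, among them GRSF1 at 0.28 ± 0.06, which binds light-strand RNA, and TRMT10C at 0.25 ± 0.06, a subunit of mitochondrial RNase P (adjusted p = 0.0016 and 0.0039, edgeR). Of 19 genes of mitochondrial transcription and DNA maintenance 3 were higher, including the RNA polymerase POLRMT at 0.32 ± 0.08 and the DNA polymerase POLG at 0.46 ± 0.10 (adjusted p = 0.0055 and 0.0023, edgeR). That count, 3 of 19, is close to the background. Of 78 mitochondrial ribosomal proteins 17 were higher, with MRPL33 at 0.55 ± 0.10 (adjusted p = 0.00019, edgeR), and of 19 citric acid cycle genes 5 were higher and 1, IDH3G at -0.24 ± 0.08, was lower (adjusted p = 0.034, edgeR).

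Samul-tang 500 gave 11 and 1 assembly factors higher and lower, 7 and 0 RNA processing genes, 3 and 0 transcription genes, 17 and 3 ribosomal proteins and 5 and 1 citric acid cycle genes. With the library set term the counts at Samul-tang 500 were 1 RNA processing gene higher and 0 for the other 4 lists, and at Sagunja-tang 500 they were 0 of 50 assembly factors, 1 of 28 RNA processing genes, 0 of 19 transcription genes, 1 of 78 ribosomal proteins and 0 of 19 citric acid cycle genes. At Cinnamomi Cortex 500 against 20, 4.51% of all genes were called higher, and 6.65% with the term. Of the 16356 genes, 913 were called lower there, and 1171 with the term. In this contrast 15 of 78 mitochondrial ribosomal proteins were called higher and 1 lower without the term. With it they were 22 and 1, and the median was 0.14 in both. MRPS35 had the smallest adjusted p of that list, at 0.20 ± 0.04 (adjusted p = 0.00019, edgeR), and MRPS25 was the one that was lower, at -0.19 ± 0.06 (adjusted p = 0.039, edgeR). In the citric acid cycle 5 of 19 were higher there and none lower, and 6 and 1 with the term, including IDH3A at 0.19 ± 0.03 and OGDH at 0.19 ± 0.05 (adjusted p = 7.5e-05 and 0.0035, edgeR). Cytochrome c itself, CYCS, was higher by 0.19 ± 0.05 (adjusted p = 0.0091, edgeR), and also with the term (adjusted p = 0.0054).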

How the data were processed

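Messenger RNA libraries were made with a directional kit and sequenced as paired-end reads, per the labels' protocols. The authors deposited expected counts per gene for each library, with GRCh38 (hg38) and FastQC 0.11.9, Trim Galore 0.6.5, STAR 2.7.3a and RSEM 1.3.3 named in the submitters' processing notes. The sources used here do not give the annotation or the RSEM settings. Of the 273 value columns, 213 were not used because no sample here carries their names. Expected counts, 8.8% of which were not whole, were rounded. Totals were 20459346 to 36253747 counts per library. A gene name table gave symbols to 56558 identifiers, GENCODE 29 to another 497, and 3620 stayed without one.

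Genes were filtered with filterByExpr (minimum count 10), leaving 16356, and 57 libraries in 19 groups were fitted together with edgeR 4.0.16 (limma 3.58.1, R 4.3.3), TMM factors of 0.938 to 1.04 and robust quasi-likelihood tests. The robust option was taken after a fit without it had been seen. Each of the 36 comparisons had its p-values adjusted over all genes (Benjamini-Hochberg), with calls under 0.05. All fold changes are log2 with their standard errors, and values per library are CPM with TMM scaling. Shares are percent of all counts. Counts were simulated for Sagunja-tang 500 against vehicle, with the same spread for all genes and no difference between library sets. Of genes changed by 0.5 and 1 (log2), 71.4% and 81.6% were recovered, with 7 false calls among 16208 genes.

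The members, the other gene lists and the library sets, which follow sample codes and the first principal component, were chosen with earlier results of these data known. The genes named are the 13 mitochondrial mRNAs, a panel of nuclear members, in each comparison the 4 called members per genome with the largest rise and fall, every member called both without and with the library set term, and up to 4 called genes of each other list. The Paeoniae Radix members named, and MTATP6P1, MTND2P28 and FASTK, were chosen after their values were seen. Alternatives were DESeq2 1.42.0, its size factors in edgeR, library sizes without mitochondrial mRNAs, no filter, the library set term, a replicate block, both together, the first library set alone, no robust option and each library left out. Over all groups, replicate numbers did not pair the libraries: deviations from group means of same-numbered libraries correlated at -0.199 to 0.326, with 60 of 513 pairs over 0.1. In the Cinnamomi Cortex and Astragali Radix groups replicate 1 was the first-set library, so there the number follows the library set.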

Additional observations from a re-analysis of the deposited data

How the results depend on the processing

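Of the 212 calls on members, the library set term kept 10, left 201 with the same direction but no call, and turned 1. Library sizes without the mitochondrial mRNAs left all 72 counts of calls within 1.5 times of those reported, and so did the first library set alone for the 12 counts it can give. Those 12, of Cnidii Rhizoma and Rehmanniae Radix Preparata against vehicle, were all 0 in the main fit. Most of the 72 were 0 there too, and for these the agreement says only that no member was called again. The replicate block left 67 of 72 counts within 1.5 times and kept 211 of 212 member calls. The replicate block gave 10 nuclear members for Cinnamomi Cortex 100, 1 for Cinnamomi Cortex 20, 2 for Astragali Radix 500, 1 for Astragali Radix 100 and 1 for Sagunja-tang 500 against 20. Over all groups the numbers do not pair the libraries, but in the Cinnamomi Cortex and Astragali Radix groups they follow the library set. What a call lost with the block means was not tested. The self-test gave all genes the same spread and had no library set difference. Under that setting changes of 0.5 were mostly recovered. Neither this recovery nor the number of false calls carries over to comparisons across the library sets or to the mitochondrial mRNAs. The SE of these mRNAs, about 0.2, limits what their tests can call.

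With the set term, with that term and replicate 2 of Cinnamomi Cortex 500 in the first set, and with the term and the replicate block, 0 mitochondrial mRNAs were called in the 6 formula comparisons. Nuclear calls there were 1, 1 and 0 for Sagunja-tang 500 under these 3 settings and 0 in the other 5 comparisons. Cinnamomi Cortex 100 gave 0, 0 and 1, Astragali Radix 500 gave 0 in each, and Sagunja-tang 500 against 20 gave 2 in each. Cnidii Rhizoma 500 gave 1 with replicate 2 of Cinnamomi Cortex 500 moved. With the term and the block, Cinnamomi Cortex 500 against 20 gave 10, and its difference of dose effects from Astragali Radix 1. Cinnamomi Cortex against Astragali Radix at 500 gave 4 with the term, without or with the block. The causes were not tested.

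DESeq2 called 10 mitochondrial mRNAs for Samul-tang 20, 12 nuclear members for Cinnamomi Cortex 100, 2 each for Cinnamomi Cortex 20, Astragali Radix 500 and Sagunja-tang 500 against 20, 1 for Astragali Radix 100 and 3 for Cinnamomi Cortex against Astragali Radix at 500. The last was also 3 with DESeq2 size factors in edgeR. Without the robust option Samul-tang 20 gave 9 mitochondrial mRNAs. Counted against nuclear protein-coding genes, the log2 difference of the mitochondrial share for Cnidii Rhizoma 500 was -0.19, against -0.17 of all counts. With total counts in place of TMM, 5 and 1 mitochondrial mRNAs were past 0.5 for Paeoniae Radix 20 and 500.

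With no filter on low counts the median SE of a mitochondrial mRNA was 0.05, against 0.208 with it, and mitochondrial calls were 4 and 9 for Cnidii Rhizoma 20 and 500, 1 for Rehmanniae Radix Preparata 500, 12, 11 and 7 for Cinnamomi Cortex 20, 100 and 500, 12, 11 and 12 for Astragali Radix 20, 100 and 500, and 12 for Samul-tang 20. For 500 against 20 they were 1 for Cnidii Rhizoma, 6 for Rehmanniae Radix Preparata, 9 for Cinnamomi Cortex, 1 for Astragali Radix, 4 for Sagunja-tang and 1 for Samul-tang. They were 11 for Cnidii Rhizoma against Rehmanniae Radix Preparata at 500, 8 and 2 for Cinnamomi Cortex against Astragali Radix at 500 and 100, 1 and 4 for Sagunja-tang against Samul-tang at 500 and 100, and 6, 7 and 2 for the differences of dose effects of these 3 pairs. Nuclear calls without the filter were 1 each for Cnidii Rhizoma 100 and 500 and Rehmanniae Radix Preparata 20, 14, 19 and 6 for Cinnamomi Cortex 20, 100 and 500, 7, 9 and 11 for Astragali Radix, 37 and 39 for Sagunja-tang 20 and 100, and 26 and 35 for Samul-tang 20 and 100. For 500 against 20 they were 3 for Rehmanniae Radix Preparata, 20 for Cinnamomi Cortex and 13 for Sagunja-tang. Between extracts they were 1 each for the first pair at 20 and 100, 2, 3 and 4 for the second at 20, 100 and 500, 2 and 3 for the third at 20 and 100, and 2 for the second pair's dose effects. The cause was not tested.

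With 1 library left out at a time, mitochondrial calls ran from 0 to 1 for Cinnamomi Cortex 20, 0 to 5 for Astragali Radix 20, 0 to 10, 0 to 10 and 2 to 12 for Sagunja-tang 20, 100 and 500, and 0 to 7, 2 to 10 and 0 to 11 for Samul-tang. Nuclear calls ran from 0 to 10 and 0 to 16 for Cinnamomi Cortex 20 and 100, 0 to 9, 0 to 5 and 0 to 5 for Astragali Radix 20, 100 and 500, 4 to 30, 1 to 31 and 6 to 39 for Sagunja-tang, and 0 to 17, 6 to 27 and 2 to 33 for Samul-tang. They ran from 1 to 10 for Cinnamomi Cortex 500 against 20, 0 to 5 for Sagunja-tang 500 against 20, 0 to 4 for Cinnamomi Cortex against Astragali Radix at 500 and 0 to 1 for their dose effects, where leaving out replicate 1 of Cinnamomi Cortex 20 or replicate 3 of Cinnamomi Cortex 500 gave 1. Over all members and libraries left out, 677 calls were kept and 595 lost with the same direction.

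The log2 values that changed sign were all near 0. SDHA after Samul-tang 500 was -0.00016 with the set term. With replicate 2 of Cinnamomi Cortex 500 in the first set, NDUFA2 was -0.011 and -0.032 after Sagunja-tang 100 and 500, UQCRC1 -0.01 and -0.006 after Sagunja-tang 20 and Samul-tang 20, SDHA -0.015 after Sagunja-tang 20 and -0.0069 and -0.018 after Samul-tang 100 and 500, NDUFV1 -0.0031 after Sagunja-tang 20, NDUFB2 -0.0099 after Samul-tang 100 and COX4I1 -3.3e-05 after Samul-tang 500. With the set term and replicate block, NDUFB2 was -0.027, -0.021, -0.06 and -0.022 after Sagunja-tang 100 and 500 and Samul-tang 100 and 500, COX5B -0.011 and ATP5PF 0.029 after Sagunja-tang 100, ATP5PF 0.033 after Samul-tang 20, UQCRC1 -0.025 and -0.02 after Sagunja-tang 20 and Samul-tang 20, SDHA -0.021, -0.013 and -0.024 after Sagunja-tang 20 and Samul-tang 100 and 500, and NDUFS7 -0.07 and NDUFA2 -0.014 after Sagunja-tang 500. The causes were not tested.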

Other observations

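FASTK, known for its part in mitochondrial RNA metabolism and needed there for MT-ND6 mRNA, was among the RNA processing genes listed above and stood apart from vehicle with nearly every extract. It had 51.4 to 53.3 CPM in the 3 vehicle libraries, and all 57 treated libraries, those of Paeoniae Radix included, lay above the highest vehicle library, at 54.9 to 75.4 CPM with a median of 65.9. It was called higher than vehicle in 16 of 18 comparisons, both without and with the library set term (edgeR). After Sagunja-tang 500 the log2 fold change of FASTK was 0.44 ± 0.05 (adjusted p = 1.3e-07), and 0.30 ± 0.05 with the term (adjusted p = 0.00013), in edgeR. The 18 comparisons share the same 3 vehicle libraries, and the labels as read here give a DMSO level for these libraries only. A difference common to the extracts therefore cannot be told apart from one of the vehicle libraries or their solvent. How many other genes lay above vehicle in all treated libraries is not given here. At Cinnamomi Cortex 500 against 20, which needs no vehicle, FASTK was lower, at -0.20 ± 0.05 (adjusted p = 0.008, edgeR).

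Among 13 regulators of mitochondrial biogenesis, 1 was called higher and 3 lower after Sagunja-tang 500. ESRRA, an orphan nuclear receptor that drives respiratory genes, was the one called higher (0.49 ± 0.12). PPRC1 at -0.19, HCFC1 at -0.26 and SP1 at -0.15 were called lower. Of all genes 11.6% were called higher and 8.28% lower there, and with the library set term no regulator was called. Of 15 coenzyme Q genes and carriers, 6 were called higher there and 7 after Samul-tang 500, with none lower in either and none called in either with the set term; 10.1% of all genes were called higher after Samul-tang 500. COQ3, a methyltransferase of coenzyme Q synthesis, was called at 0.46 ± 0.10 after Sagunja-tang 500. At Cinnamomi Cortex 500 against 20, CMC1, a complex IV assembly factor, was higher at 0.53 ± 0.16 (adjusted p = 0.022, edgeR) and MYC at 0.21 ± 0.06 (adjusted p = 0.018, edgeR), and both were also called with the term.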
